A study of Homo sapiens with 6 samples.

Results

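The enzymes that hydroxylate collagen in the endoplasmic reticulum, with the proteins that work beside them, were compared between control SiHa PR cells and SiHa PR cells overexpressing P4HA3. The set held 10 genes chosen by name, and all 10 were found among the 60664 genes of the count table and among the 15130 genes with enough reads to be tested. They are the alpha subunits of collagen prolyl 4-hydroxylase (P4HA1, P4HA2 and P4HA3), its beta subunit P4HB, the lysyl hydroxylases PLOD1, PLOD2 and PLOD3, the prolyl 3-hydroxylase P3H1 with its partner CRTAP, and the collagen chaperone SERPINH1. SiHa is a human cell line established from a squamous carcinoma of the cervix, and PR marks parental cells, as against lymph node metastatic cells derived from them. The control group held 3 libraries, named SiHa PR in the labels with no mention of a vector. The P4HA3 overexpression group held 3 libraries of the same cells overexpressing P4HA3. To overexpress it, the study cloned P4HA3 cDNA from total RNA into the vector pCDH, and it also made a doxycycline-inducible construct. No source says which construct the sequenced cells carried. Reads of the introduced P4HA3 and of the cell's own gene enter the same count. No treatment, dose or time point separated the groups, and no source says whether the libraries of a group came from separate cultures, so p-values measure only the spread between these libraries.

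Prolyl 4-hydroxylase is built from alpha subunits, which carry the catalytic site, and from beta subunits, which are protein disulfide isomerase and keep the alpha subunits soluble. It hydroxylates prolines of the collagen repeat, and this hydroxylation makes the collagen triple helix stable at body temperature. Lysyl hydroxylases modify lysines that later carry sugars or form cross-links. P3H1, CRTAP and the cyclophilin PPIB form a complex that hydroxylates single prolines, and SERPINH1, also called HSP47, binds the folded helix on its way out of the endoplasmic reticulum. The hydroxylases use iron, oxygen, 2-oxoglutarate and ascorbate, and several of these genes are known to be induced by hypoxia.

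The libraries held between 21773488 and 24939948 counts, and each member except P4HA3 in control cells rested on at least 1200 counts per library. The growth protocol among the labels describes a smooth muscle tissue, whereas the source name and the cell line label give SiHa. KRT7, KRT8, KRT17, KRT18 and CDKN2A, a gene known to be high in cervical carcinoma, were abundant, with 7066 counts or more in every library. In contrast, CDH1 had 206 to 405 counts, EPCAM 116 to 150, KRT19 14 to 31 and KRT5 3 to 4. The 9 epithelial and cervical carcinoma markers summed to between 11850 and 13500 CPM in control cells and between 11100 and 12660 CPM with P4HA3 overexpression, with 4 of the 8 tested called lower by edgeR and 0 higher (also 0 at an unadjusted p under 0.05). The 7 smooth muscle markers summed to between 7.06 and 10.95 CPM, 1 or 2 of them were at 0 in each library, and neither of the 2 that were tested was called, also at an unadjusted p. All 7 fibroblast markers were detected, at 187.7 to 197.5 CPM in control cells and 147.9 to 189.2 CPM with overexpression, and 0 of the 7 was called, with 1 lower at an unadjusted p under 0.05. The part of these shifts in the results was not tested, and in bulk libraries fewer cells of a type and less RNA per cell cannot be told apart. Across genes, log2 fold changes followed GC content (Spearman rho -0.58 over 15107 genes, which are not independent) and less so transcript length (rho 0.27). Whether this trend is technical was not tested, so member values are also given after a correction that removes it. After this correction the epithelial markers had 1 higher, KRT7 (0.33), and 2 lower, KRT18 (-0.20) and CDH1 (-0.80, against -0.77 uncorrected). The fibroblast markers had 0 higher and 1 lower, LUM (-0.40), and the smooth muscle markers 0 of either. Of all genes, 10.6% were then called higher and 7.94% lower.

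P4HA3 (ENSG00000149380, GRCh38 chr11:74235801-74311640, minus strand) was the scarcest member in control cells and the most abundant per transcript length with overexpression. Control libraries held 86, 62 and 93 counts of P4HA3, and overexpression libraries held 45042, 44775 and 49097. In normalized expression (CPM, counts scaled to a common library size by TMM) this was 3.53, 2.91 and 3.80 against 1934.0, 1991.2 and 1935.5. The groups were far apart, and within each group the libraries lay close together. The log2 fold change was 9.15 (SE 0.101, 95% interval 8.93 to 9.38, adjusted p = 3.19e-12), a 569-fold difference. Its exons share 166 bases with the opposite-strand gene PPME1 and 38 bases with P4HA3-AS1, and the strand setting of the counting is not stated.

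**Figure D1:**
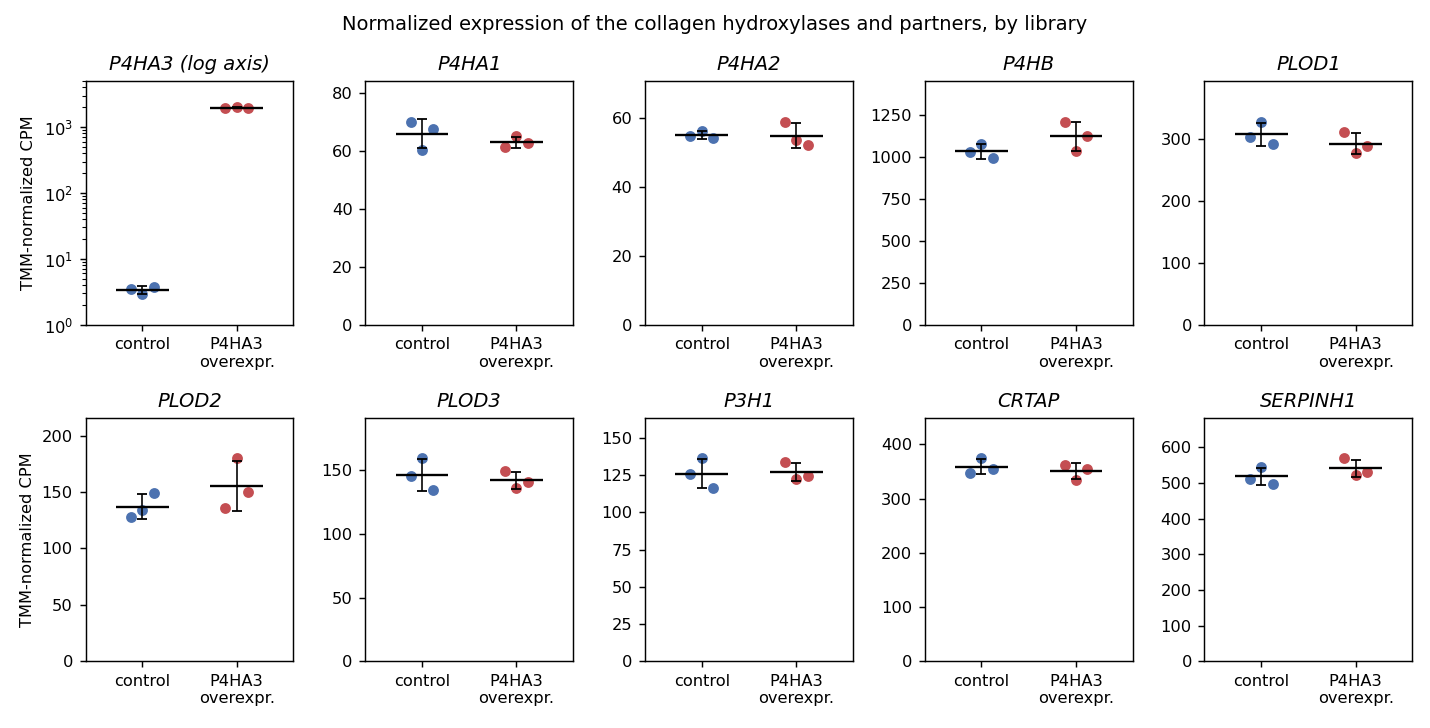
TMM-normalized CPM of the 10 members in each library, with the 3 control libraries on the left and the 3 P4HA3 overexpression libraries on the right of each panel; bars give the mean and SD, and the P4HA3 panel has a log axis. P4HA3 moved from a mean of 3.41 to 1954 CPM, and in the other 9 panels the points of the groups overlap.

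P4HA1 (chr10:73007217-73096974, minus strand), the alpha subunit of the main form of the enzyme in most cells, had 70.2, 60.4 and 67.6 CPM in control libraries and 61.3, 65.2 and 62.8 CPM with overexpression. The second control library lay below all overexpression libraries and the other control libraries lay above them. Its log2 fold change was -0.07 (SE 0.0688, 95% interval -0.22 to 0.085, adjusted p = 0.490). P4HA2 (chr5:132190147-132295315, minus strand), the other widely expressed alpha subunit, had 54.8, 56.3 and 54.2 CPM against 59.0, 53.7 and 52.1 CPM. One overexpression library lay above all control libraries and the others lay below them, and the means of 55.1 ± 1.08 and 54.9 ± 3.63 CPM (SD, n = 3 each) differed by less than the spread. The interval of the P4HA2 log2 fold change ran from -0.15 to 0.14 (adjusted p = 0.966). P4HA2 shares 548 exonic bases with P4HA2-AS1 on the opposite strand, and P4HA1 shares 47 with an unnamed long noncoding RNA.

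The makeup of the alpha subunit mRNA pool was read within each library as counts divided by exonic length. P4HA1 made up 78.3%, 75.6% and 77.6% of the pool in control libraries, P4HA2 18.7%, 21.5% and 19.0%, and P4HA3 3.05%, 2.83% and 3.38%. With overexpression, P4HA3 made up 94.97%, 94.98% and 95.02%, while P4HA1 made up 3.88%, 4.01% and 3.98% and P4HA2 1.14%, 1.01% and 1.01%. The overexpression fixes the direction of these shares, so they carry no test. P4HA3 thus went from the smallest to the largest share while the CPM of P4HA1 and P4HA2 overlapped between the groups. P4HA1 exceeded P4HA2 in control cells under every length used, but by how much depended on the length: P4HA1 was 79.6% of their sum by exonic length, 66.5% by the canonical transcript and 54.4% by coding length.

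The balance of P4HA1 to P4HA2, which does not involve the introduced gene, was 80.8%, 77.8% and 80.3% P4HA1 in control libraries and 77.3%, 79.9% and 79.8% with overexpression. The values of the groups overlapped. The difference of means was -0.65 percentage points (exact permutation test, two-sided, p = 0.5, 0.6 after adjustment over the 6 within-library ratios that were tested), and its sign turned to 0.20 without overexpression replicate 1. With 3 libraries per group the exact test cannot give a p below 0.1.

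P4HB (chr17:81843159-81860856, minus strand), which besides its part in prolyl 4-hydroxylase is an abundant disulfide isomerase of its own, had 1029, 1077 and 992 CPM in control libraries and 1210, 1036 and 1125 CPM with overexpression. The second overexpression library lay inside the control range and the other two lay above it. The log2 fold change was 0.12 (SE 0.0711, 95% interval -0.036 to 0.28, adjusted p = 0.228). P4HB thus had no call while the alpha subunit pool rose. The summed alpha subunits per P4HB, by exonic length, stood at 0.314, 0.267 and 0.316 in control libraries and at 4.70, 5.65 and 5.05 with overexpression. This is a 17.2-fold higher ratio (log2 difference 4.10), in the direction the overexpression fixes, so it carries no test. By canonical transcript length the mean ratio went from 0.0890 to 1.96 and by coding length from 0.115 to 1.73, so alpha subunit mRNA went from below to above P4HB mRNA under every length used. Without P4HA3, the ratio of P4HA1 plus P4HA2 to P4HB was 0.304, 0.259 and 0.305 against 0.236, 0.283 and 0.252, which overlapped (log2 difference -0.17, exact permutation p = 0.2, 0.6 adjusted). The annotation places 529 exonic bases of P4HB opposite a long noncoding RNA.

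**Figure D2:**
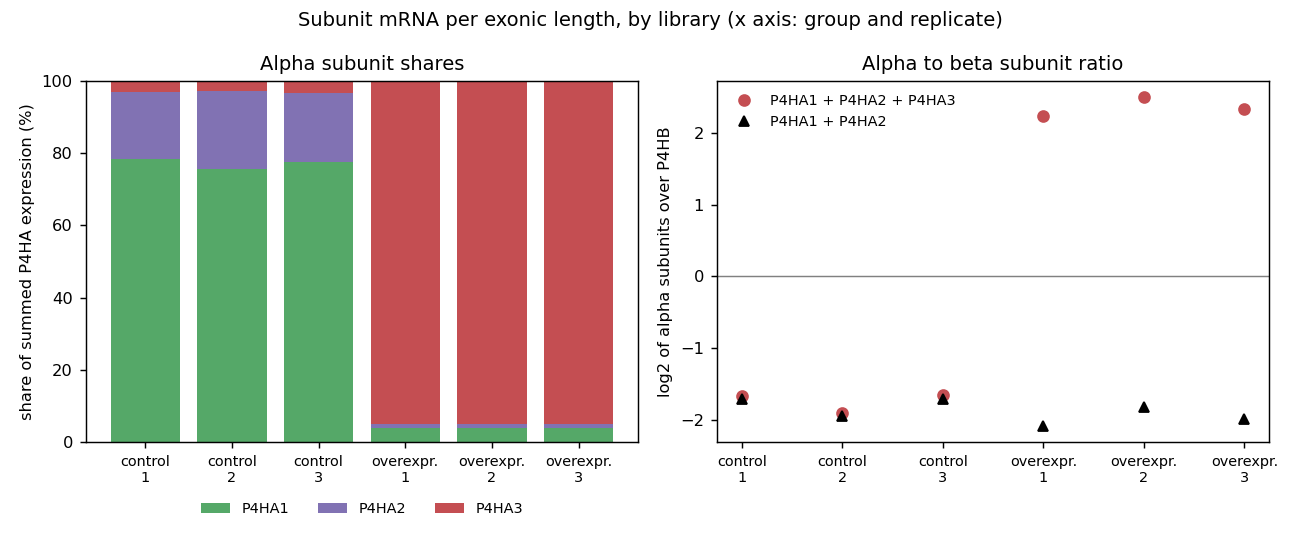
Left, share of each alpha subunit in the summed P4HA1, P4HA2 and P4HA3 expression (counts per exonic length, %) in each library. Right, log2 ratio of the alpha subunits to P4HB, with all 3 alpha subunits (circles) and with P4HA1 and P4HA2 alone (triangles). P4HA3 takes 94.97% to 95.02% of the pool in the overexpression libraries, and only the ratio that includes P4HA3 crosses 0.

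The lysyl hydroxylases showed no call in either direction. PLOD1 (chr1:11934205-11975538, plus strand), which acts on lysines of the helix, had 304, 328 and 291 CPM in control libraries and 311, 277 and 288 CPM with overexpression. The libraries of the groups interleaved, and the log2 fold change was -0.07 (95% interval -0.22 to 0.072, adjusted p = 0.428). PLOD3 (chr7:101205977-101218420, minus strand), which also adds sugars to hydroxylysine, had 146, 159 and 134 CPM against 150, 136 and 141 CPM. All 3 overexpression values lay within the control range, with a log2 fold change of -0.04 (95% interval -0.20 to 0.11, adjusted p = 0.683). PLOD3 overlaps the opposite-strand gene ZNHIT1 by 102 exonic bases.

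PLOD2 (chr3:146035139-146163725, minus strand), the lysyl hydroxylase of the collagen ends and a known hypoxia target, varied most among the members that were not introduced. It had 128, 134 and 149 CPM in control libraries and 136, 180 and 150 CPM with overexpression. The second overexpression library stood above the rest, and the first lay within the control range. The log2 fold change was 0.18 (SE 0.0973, 95% interval -0.034 to 0.40, adjusted p = 0.192). PLOD2 passed the threshold without overexpression replicate 1 (0.27, adjusted p = 0.0239) and stood at 0.063 without overexpression replicate 2 (adjusted p = 0.605), and after the GC and length correction its value was -0.03. In the lysyl hydroxylase pool, by exonic length, PLOD1 made up 62.1% ± 0.350 in control cells and 60.5% ± 1.58 with overexpression, PLOD3 27.8% ± 0.903 and 27.7% ± 0.466, and PLOD2 10.2% ± 1.25 and 11.8% ± 2.02 (SD, n = 3). All 3 shares overlapped between groups (exact permutation p = 0.2, 0.8 and 0.3, adjusted 0.6, 0.8 and 0.6). The PLOD2 share depended on the length: it was 19.1% and 21.8% by canonical transcript and 22.6% and 25.6% by coding length.

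P3H1 (chr1:42746335-42767084, minus strand) had 125, 136 and 117 CPM in control libraries and 134, 123 and 124 CPM with overexpression. Every overexpression value lay inside the control range, and the log2 fold change was 0.01 (SE 0.0680, 95% interval -0.14 to 0.16, adjusted p = 0.924). CRTAP (chr3:33114014-33147773, plus strand), the non-enzymatic helper that P3H1 needs, had 347, 374 and 355 CPM against 363, 334 and 354 CPM, again with interleaved libraries. Its log2 fold change was -0.04 (95% interval -0.16 to 0.093, adjusted p = 0.679), and 305 of its exonic bases face a long noncoding RNA. The ratio of CRTAP to P3H1 by exonic length was 2.90 in control cells and 2.81 with overexpression (exact permutation p = 0.5, 0.6 adjusted). The ratio itself depended on the length, at 1.12 and 1.08 by canonical transcript and 5.24 and 5.07 by coding length.

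SERPINH1 (chr11:75562056-75572783, plus strand) had 511, 546 and 497 CPM in control libraries and 568, 523 and 531 CPM with overexpression. The first overexpression library was the highest of the 6 and the others lay within the control range. The log2 fold change was 0.06 (SE 0.0614, 95% interval -0.073 to 0.20, adjusted p = 0.472).

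In control cells the order of expression per kb of canonical transcript was led by P4HB with a mean of 424 CPM per kb, followed by SERPINH1 at 252 and PLOD1 at 103. CRTAP at 54.4, PLOD3 at 52.0 and P3H1 at 48.6 CPM per kb followed. The range of PLOD3 overlapped those of CRTAP and P3H1, which did not overlap each other. PLOD2 came next at 36.6 CPM per kb, then P4HA1 at 24.1, P4HA2 at 12.1 and P4HA3 at 1.51, with no overlap between neighbours. Subunits of 1 enzyme were thus far from equal in mRNA, with P4HB above every alpha subunit. With overexpression, P4HA3 stood at 858 to 883 CPM per kb, above P4HB at 425 to 496. The length of the introduced transcript is not given in the sources used here, so the P4HA3 level per length is approximate.

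**Figure D3:**
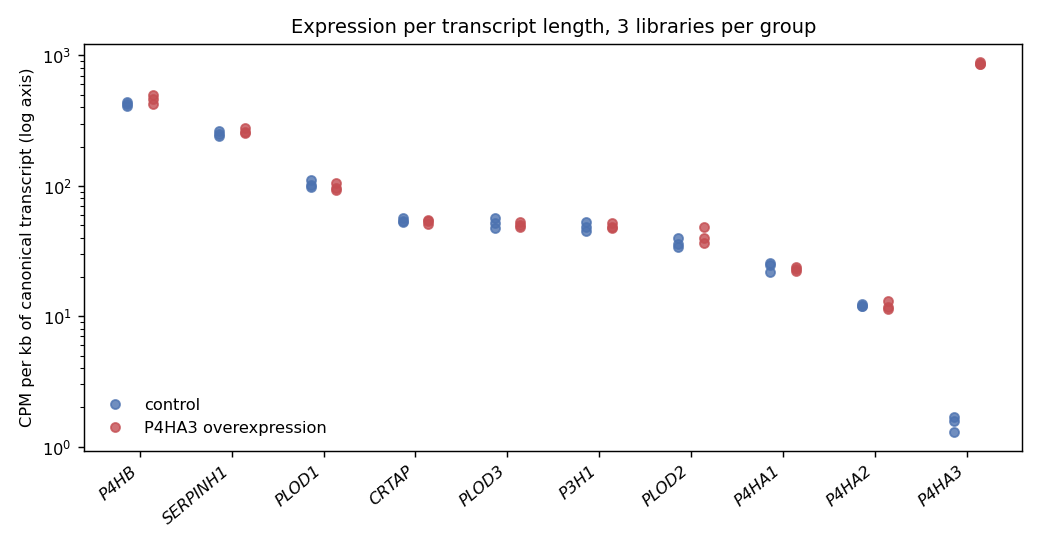
CPM per kb of canonical transcript (log axis) of the 10 members, ordered by their level in control cells, with 1 point for each of the 3 control and 3 P4HA3 overexpression libraries. P4HA3 is the lowest member in control cells at 1.29 to 1.69 CPM per kb and the highest with overexpression.

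Of the 10 members, 1 (P4HA3) was called higher, 0 lower and 9 had no call, against 20.8% of all 15130 genes called (9.36% higher and 11.4% lower). DESeq2 and limma-voom also called P4HA3 alone among the members, and no other member had an unadjusted p under 0.05 in edgeR, against 38.7% of all genes tested. P4HA3 was likewise the only member whose groups did not overlap, while 40.1% of all genes tested had groups that did not (19.7% higher and 20.4% lower). The median log2 fold change of the members was 0.0028, and that of all genes was 0.0056. The intervals of the 9 members that were not introduced reached at most 0.40 and at least -0.22 on the log2 scale.

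These 9 results moved with the GC and length correction, under which 18.5% of all genes were called (10.6% higher and 7.94% lower). The corrected log2 fold change was 0.28 for P4HB (adjusted p = 0.0012), 0.26 for SERPINH1 (adjusted p = 0.00127), 0.18 for PLOD3 (adjusted p = 0.0140) and 0.17 for P3H1 (adjusted p = 0.0197), all called higher. P4HA1 was called lower at -0.23 (adjusted p = 0.0162). P4HB, SERPINH1, PLOD3 and P3H1 have GC contents of 57.2% to 61.4% and P4HA1 has 39.7%. PLOD1, at 58.8% GC, went from -0.07 to 0.11 without a call. P4HA2, PLOD2 and CRTAP stayed without a call at -0.09, -0.03 and -0.06. With the correction the members thus split into 5 higher, counting the introduced P4HA3, and 1 lower, and without it P4HA3 alone was called. The correction also removes any real change that follows GC content or length, and which set of values is nearer to the cells was not tested.

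**Figure D4:**
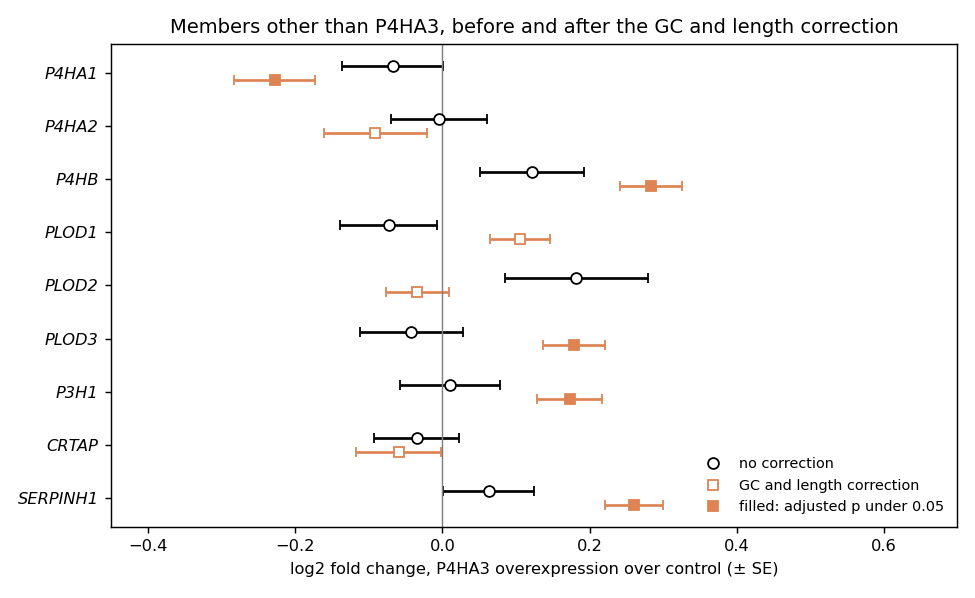
Log2 fold change with SE of the 9 members other than P4HA3, without correction (circles) and after correction for GC content and transcript length (squares); filled symbols passed an adjusted p of 0.05. No circle is filled, and squares are filled for P4HA1 on the left of 0 and for P4HB, PLOD3, P3H1 and SERPINH1 on the right.

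Promoters were read for letters tied to the known regulation of these genes, in windows of 250 bases before to 50 bases after the transcript start (RefSeq, GRCh38.p14), matched for 9 of the 10 members, all but P4HA3. The core of the hypoxia response element, ACGTG or GCGTG on either strand, was found in 7 of these 9 members and in 48.4% of 35116 promoters. It was as frequent in related genes with a promoter, described below. It was found in 8 of 10 collagen folding partners, 13 of 13 protein disulfide isomerases and oxidases, and 11 of 12 hypoxia-induced genes. Here and below, a gene counted if any of its promoters matched, whereas shares over all promoters count single promoters. Some genes have several promoters, so these are unlike measures. P4HA2 and PLOD3 had no match in this window. The heat shock core GAANNTTC was found in 2 members, PLOD1 and SERPINH1, and in 6.77% of all promoters. A match of letters is a description and not a site of binding. One stretch each is shown for P4HA1 and PLOD2 (hypoxia core in capitals, on the other strand in P4HA1) and for the heat shock protein SERPINH1 (heat shock core in capitals). They lie at chr10:73096935-73096964 and chr3:146161313-146161342 on the minus strand and chr11:75562171-75562200 on the plus strand.
P4HA1: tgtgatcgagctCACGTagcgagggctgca
PLOD2: caaacagtccagACGTGgggcccaggaggg
SERPINH1: ccaactttccaGAAGTTTCtcgggacgggc

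The lists of related genes that follow were set against the same background of 9.36% called higher and 11.4% lower, and counts at an unadjusted p against the 38.7% of all genes that passed it. Without control replicate 1, control replicate 2 or overexpression replicate 3, only 5.09%, 3.47% and 5.89% of all genes were called, and without overexpression replicate 1 35.9% were, so list counts without these libraries stand beside those shares. Of the 27 genes named below as the largest calls of these lists, 9 kept their call in every alternative that gave them an adjusted p: ADM, CA9 (which DESeq2 gave none), CANX, COL18A1, COL6A2, HSPA5, IDH2, PDIA4 and SEC24D. Among 15 collagen folding, glycosylation and export partners, 14 were tested, of which 5 rose and 4 fell, with a median log2 fold change of 0.16. HSPA5, the main chaperone of the endoplasmic reticulum, rose from 1502 ± 19.9 to 2093 ± 39.6 CPM (SD, n = 3; log2 fold change 0.48, SE 0.0589, adjusted p = 0.00127). SEC24D, a coat protein of the vesicles that carry procollagen, rose from 39.8 ± 2.59 to 53.1 ± 2.72 CPM (0.41, adjusted p = 0.00576), and the lectin chaperone CANX from 719 ± 37.0 to 950 ± 49.9 CPM (0.40, adjusted p = 0.00427). The prolyl isomerase FKBP10 fell by 0.51 on the log2 scale (adjusted p = 0.0154), the prolyl 3-hydroxylase P3H3 by 0.44 (adjusted p = 0.0386) and its relative P3H4 by 0.35 (adjusted p = 0.0143). The 3 genes that rose were also called after the GC and length correction and without any single library, while none of these 3 that fell was called after correction. Corrected, the list had 7 higher and 0 lower, and without control replicate 1, control replicate 2 or overexpression replicate 3 it had 4 higher and 0 lower.

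The endoplasmic reticulum stress element, CCAAT followed after any 9 bases by CCACG on either strand (so that each match also holds a CCAAT box), was found in 0 of the 9 members with a promoter and in 3 of the 10 partners with one, HSPA5, CANX and CALR, against 0.0769% of all promoters. It was also found in 2 of 13 protein disulfide isomerases and oxidases with a promoter, PDIA6 (log2 fold change 0.16, adjusted p = 0.0815) and ERO1B (0.23, adjusted p = 0.0842), neither of them called, and not in PDIA4. CALR, a lectin chaperone named, like PDIA6 and ERO1B, for its promoter, had a log2 fold change of 0.19 (adjusted p = 0.0729). After the GC and length correction CALR was called higher (0.30, adjusted p = 0.000747), and PDIA6 (0.12) and ERO1B (-0.0088) were not called. The elements are given in capitals at chr9:125241385-125241414 (minus strand), chr5:179698773-179698802 and chr19:12938379-12938408 (plus strand), where that of CALR reads on the other strand and overlaps a match of the hypoxia core.
HSPA5: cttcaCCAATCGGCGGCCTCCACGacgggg
CANX: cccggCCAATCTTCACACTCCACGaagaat
CALR: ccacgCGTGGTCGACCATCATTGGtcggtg

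The protein disulfide isomerases, the family of P4HB, together with oxidases held 13 tested genes of 14, of which 5 rose and 0 fell in edgeR (median 0.23), with 10 higher and 0 lower at an unadjusted p under 0.05. DESeq2 called 6 higher and limma-voom 4, and neither called any lower. PDIA4 rose from 489 ± 6.20 to 689 ± 45.2 CPM (log2 fold change 0.50, SE 0.0625, adjusted p = 0.00135), TMX3 from 48.4 ± 3.34 to 61.6 ± 10.2 CPM (0.35, adjusted p = 0.0448) and PDIA3, which works with CANX, from 788 ± 14.1 to 937 ± 23.7 CPM (0.25, adjusted p = 0.0147). PDIA4 alone of the list was called after the correction (0.56, adjusted p = 4.06e-05), when the median was 0.040. The count of higher calls was 1 without control replicate 1, control replicate 2 or overexpression replicate 3, and 9 without overexpression replicate 1.

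Genes of extracellular collagen processing, which trim and cross-link the secreted chains, held 9 tested of 12, with 1 higher and 2 lower (median -0.17). PCOLCE2, an enhancer of procollagen trimming, rose from 7.63 ± 0.208 to 9.67 ± 0.700 CPM (log2 fold change 0.34, adjusted p = 0.0357), and missed the threshold in DESeq2 (adjusted p = 0.0706) and without any 1 library but overexpression replicate 1, at folds of 0.32 to 0.40 on the log2 scale. PCOLCE2 was also called after the GC and length correction (0.36, adjusted p = 0.0169). The procollagen C-proteinase BMP1 fell by 0.25 (adjusted p = 0.0164) and the proprotein convertase FURIN by 0.21 (adjusted p = 0.0441), and neither was called after correction, at -0.06 and -0.0069. No gene of the list was called without control replicate 1, control replicate 2 or overexpression replicate 3, where the log2 fold change of BMP1 was -0.26, -0.23 and -0.25.

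Other 2-oxoglutarate dioxygenases that act on proteins share the chemistry of the members. All 12 were tested, with 2 higher and 3 lower (median -0.03). The ribosomal oxygenase RIOX2 rose by 0.32 (adjusted p = 0.0235) and the aspartyl hydroxylase ASPH by 0.28 (adjusted p = 0.0268). EGLN3, a prolyl hydroxylase of the hypoxia-inducible factor, fell by 0.77 (adjusted p = 0.0356) on only 16 to 35 counts per library, ASPHD2 by 0.37 (adjusted p = 0.0315) and P4HTM, the transmembrane prolyl 4-hydroxylase, by 0.23 (adjusted p = 0.0441). After correction 1 of the 12 was higher, RIOX1 (0.22, adjusted p = 0.00837, against 0.03 uncorrected), and 1 lower, EGLN3. RIOX2 and ASPH were not called after correction (0.12 and 0.10), and P4HTM stood at 0.0077. None of the 12 was called without control replicate 1 or control replicate 2, and EGLN3 was called only without overexpression replicate 1 when leaving out a library.

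Of 16 genes of cofactor and substrate supply, such as iron uptake and the making of 2-oxoglutarate, 14 were tested, with 1 higher and 3 lower (median -0.05). The transferrin receptor TFRC rose from 260 ± 11.7 to 315 ± 30.4 CPM (log2 fold change 0.28, adjusted p = 0.0268). IDH2 and IDH1, the isocitrate dehydrogenases in this list, make 2-oxoglutarate, and both fell. IDH2 went from 94.9 ± 5.17 to 67.3 ± 6.34 CPM (-0.49, SE 0.0759, adjusted p = 0.00317) and IDH1 from 212 ± 6.33 to 172 ± 16.6 CPM (-0.31, adjusted p = 0.0174). The glucose transporter SLC2A1 fell by 0.19 (adjusted p = 0.0437). IDH2 and IDH1 were also called after correction (-0.37 and -0.42), and TFRC and SLC2A1 were not; both also lost the call without any 1 of control replicates 1 and 2 and overexpression replicates 2 and 3. IDH1 lost its call without control replicate 1 (adjusted p = 0.0817) or control replicate 2 (adjusted p = 0.0720).

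The collagen substrates of the members held 14 tested genes of 14, with 0 higher and 4 lower in edgeR (median -0.19), and 2 higher and 6 lower at an unadjusted p under 0.05. DESeq2 called 1 higher and limma-voom 0. COL18A1, a basement membrane collagen, fell from 23.2 ± 0.524 to 16.1 ± 0.858 CPM (log2 fold change -0.53, SE 0.0790, adjusted p = 0.00289). The collagen VI chains COL6A2 and COL6A1 fell by 0.42 (adjusted p = 0.00203) and 0.25 (adjusted p = 0.0197). Corrected, 2 chains were higher, COL5A1 at 0.29 (adjusted p = 0.000675) and COL12A1 at 0.18 (adjusted p = 0.0337). Another 2 were lower, COL18A1 at -0.28 (adjusted p = 0.0105) and COL6A2 at -0.16 (adjusted p = 0.0180), with COL6A1 at -0.02. COL12A1 and COL5A1 had the highest CPM of the list. Uncorrected, they went from 1313 to 1635 and from 420 to 468 CPM, without a call (adjusted p = 0.0610 and 0.0732). Without control replicate 1, control replicate 2 or overexpression replicate 3 the list had 2 lower, with COL6A1 not among them, and without overexpression replicate 1 it had 2 higher and 7 lower. Of 10 other proteins with collagen-like stretches, 4 had no count in any library, 4 were tested and 0 was called by edgeR, DESeq2 or limma-voom, with 1 higher and 1 lower at an unadjusted p under 0.05 in edgeR. A collagen chain that did not pass the test is not shown to be level at this depth.

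Hypoxia-induced genes outside the members, such as targets of the factor that also drives P4HA1 and PLOD2, held 15 tested of 16, with 1 higher and 6 lower (median -0.24). The peptide hormone gene ADM rose from 64.6 ± 1.40 to 85.3 ± 3.09 CPM (log2 fold change 0.40, adjusted p = 0.00232). CA9, a carbonic anhydrase known as a hypoxia marker, fell from 2.34 ± 0.536 to 1.09 ± 0.0817 CPM (-1.10, SE 0.209, adjusted p = 0.00804) and ANGPTL4 from 3.98 ± 0.606 to 2.29 ± 0.138 CPM (-0.80, adjusted p = 0.00864), both at low counts, and ANGPTL4 missed the threshold without control replicate 2 (adjusted p = 0.0554). EGLN3, with the limits given above, is also in this list. The other genes called lower had higher counts. NDRG1 fell from 89.1 to 59.7 CPM (-0.58, adjusted p = 0.000664), VEGFA from 132 to 103 CPM (-0.36, adjusted p = 0.00277) and PFKFB4 from 17.7 to 12.1 CPM (-0.55, adjusted p = 0.00382). NDRG1, VEGFA and PFKFB4 were also called lower after correction, at -0.47, -0.32 and -0.43. After correction the list had 1 higher and 8 lower (median -0.37), and leaving out each library in turn it had 1 higher and 4 to 6 lower. P4HA1 and PLOD2 had no call in the uncorrected values. After correction P4HA1 was called lower (-0.23, adjusted p = 0.0162) and PLOD2 was not called (-0.03).

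**Figure D5:**
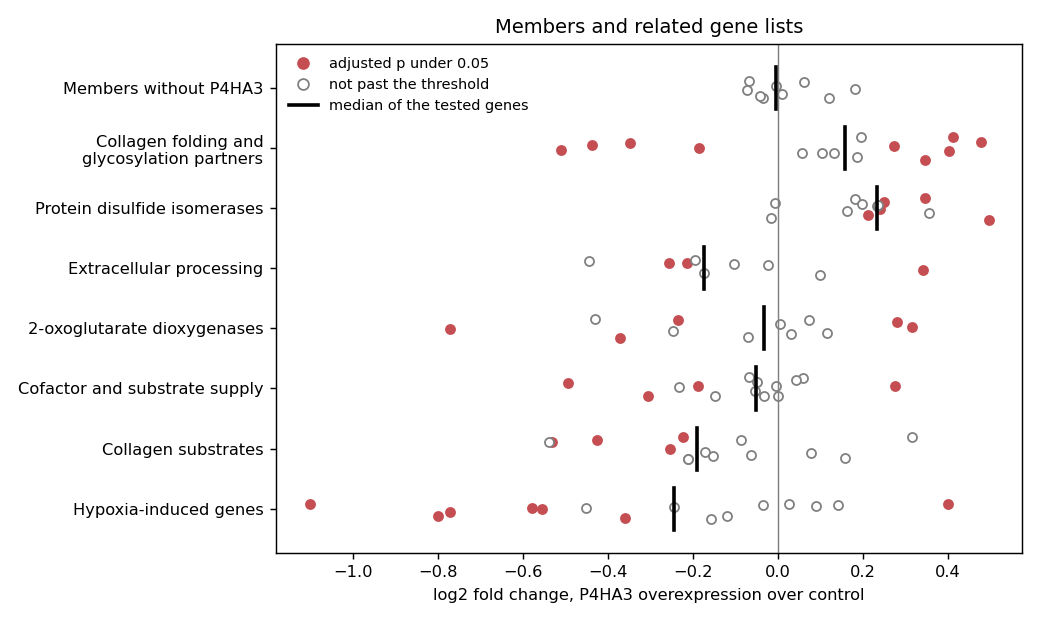
Log2 fold change of each tested gene in the members other than P4HA3 and in 7 related gene lists; filled points passed an adjusted p of 0.05 and black bars are medians. The 9 members lie between -0.07 and 0.18 with no filled point, the protein disulfide isomerases lean to the right of 0 (median 0.23) and the hypoxia-induced genes to the left (median -0.24). All values shown are uncorrected. After the GC and length correction the median was 0.040 for the protein disulfide isomerases and -0.37 for the hypoxia-induced genes.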

How the data were processed

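RNA-seq of 6 SiHa PR libraries (3 control, 3 P4HA3 overexpression) was used. By the study's supplementary methods, poly-A RNA was made into dUTP strand-specific libraries and sequenced as paired ends, and the authors aligned the reads to GRCh38 with STAR and counted them with HTSeq, whereas the submitters' processing notes name HISAT2. The authors deposited unnormalized counts of 60664 Ensembl genes, of which 60463 matched GENCODE 44, used here for symbols, positions, length and GC content. The strand setting of the counting is not given in the sources used here.

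The groups were compared in edgeR 4.0.16 (R 4.3.3), with filterByExpr (minimum count 10), TMM, and the two-sided quasi-likelihood test of 3 against 3 with Benjamini-Hochberg adjustment over 15130 genes, called at an adjusted p under 0.05. All adjusted p-values of genes come from this test unless another is named. Library totals ran from 21773488 to 24939948. The common coefficient of biological variation was 7.66%, and libraries of a group differed beyond sampling noise (chi-square per degree of freedom 3.61 to 11.5). The test was checked on simulated data. In the GC and length correction, smooth trends of each library (mgcv 1.9.3) entered as an offset. Ratios within a library were compared by exact permutation tests on counts divided by exonic length, and levels between genes use CPM per kb of canonical transcript.

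Alternatives were other normalizations, P4HA3 left out of the library sizes, no filter, DESeq2 1.42.0, limma-voom 3.58.1, the replicate number as a block, the correction, other lengths and each library left out. Division by canonical length was added after seeing the data. The members and gene lists were chosen with earlier results of these data known. All members are named, and of each list up to 3 called genes per direction with the largest log2 fold change. Further list genes are named for their promoter (CALR, PDIA6 and ERO1B), for a call after correction (RIOX1, COL5A1 and COL12A1) or as calls beyond these 3 (NDRG1, VEGFA and PFKFB4). Marker lists were fixed by name.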

Additional observations from a re-analysis of the deposited data

How the results depend on the processing

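P4HA3 was called in every alternative that held it, and 0 was the count of members called higher when library sizes and table were made without it. Otherwise members called higher were 2 with no filter on low counts (PLOD2 joined, adjusted p = 0.0344), 1 to 2 when leaving out a library, and 5 with the GC and length correction, alone or with the replicate block. Members called lower were 1 (P4HA1) with the correction, alone or with the block. Genes called higher were 2384 with no filter, 2138 with the replicate block and 2136 with block and correction. Leaving out each library, they ran from 163 to 2814, and genes called lower from 371 to 2716, lowest without control replicate 2. Calls were 45% higher in the values as reported, 57.1% with the correction (which shared 1694 of 3147 calls), 53.2% with no filter, and 29.3%, 30.5% and 30.4% without control replicate 1, control replicate 2 and overexpression replicate 3. Same-numbered libraries deviated together with r of 0.25, -0.05 and 0.03, so the numbers were not taken as pairs, and the replicate block alone called no other member. The log2 difference of summed alpha subunits per P4HB was 3.91 by coding length, 3.94 with no division by length and 4.46 by canonical length. The difference in the share of P4HA1 in P4HA1 plus P4HA2 ran from -1.55 to 0.20 points when leaving out a library, the latter without overexpression replicate 1. Of the members without a call, these changed sign. P4HA2 stood at 0.011 with library sizes only, 0.0058 with no filter, 0.011 without control replicate 2, 0.0100 without overexpression replicate 2 and 0.034 without overexpression replicate 3, the highest of a range that began at -0.0585 without overexpression replicate 1. With the correction alone and with the block, PLOD1 stood at 0.1056 and 0.1059, PLOD2 at -0.0342 and -0.0351, and PLOD3 at 0.179 and 0.180. P4HTM, a list gene called lower as reported, stood at 0.00770 and 0.00769 in these fits. Leaving out a library, PLOD3 ran from -0.0991 to 0.023, above 0 without control replicate 2, and P3H1 from -0.041 to 0.070, below 0 without control replicate 3 and at -0.028 without overexpression replicate 1. The share of PLOD3 in the lysyl hydroxylases differed by 0.085, 0.25 and 0.18 points without control replicate 1, control replicate 2 and overexpression replicate 2, with a lowest value of -0.60 without control replicate 3, and log2 CRTAP per P3H1 by -0.074 to 0.0012, the latter without control replicate 3. The cause of these shifts was not tested. Depth limits P4HA3 in control cells, at 62 to 93 counts, and the rarest list genes, and DESeq2 gave an adjusted p to 11903 genes.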
